A study of Sus scrofa with 60 samples.

Results

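Expression of 8 sterol transport genes was followed in the livers of 60 neonatal pigs that differed in diet and in bile flow. The members were the 8 genes of the count table named ABCG5, ABCG8, NPC1L1, SCARB1, ABCA1, ABCG1, NR1H3, and NR1H2, among 30335 named genes. They were taken by name for their place in sterol efflux and plant sterol handling, and each had 1 row in the table.

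ABCG5 and ABCG8 are transporter subunits that work as a heterodimer at the canalicular membrane of the hepatocyte, where they pump cholesterol and plant sterols into bile. Loss of either gene in humans causes sitosterolemia, in which plant sterols accumulate. NPC1L1 takes sterols up at the apical membrane, best known from the enterocyte. SCARB1 (SR-BI) takes up cholesteryl ester from HDL, and ABCA1 and ABCG1 hand cellular cholesterol to apoA-I and to formed HDL. The liver X receptors, LXRα (NR1H3) and LXRβ (NR1H2), are oxysterol-activated nuclear receptors whose known targets include the 4 ABC transporters. Soybean oil emulsions carry plant sterols, and mixed emulsions that replace part of the soybean oil carry less, so the soy against mixed comparison asks whether these genes differed with the lipid source.

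The pigs were of mixed Landrace and Hampshire breed, of both sexes, delivered by cesarean section 1 day before term, and sampled at day 14. BDL pigs had the cystic and common bile ducts tied, and sham pigs had the incision and brief handling of the liver. All of them carried a jugular catheter and received parenteral nutrition (PN) on the first day of life. Enteral pigs were then weaned from PN to a milk replacer formula by steps over the first week, so they too had PN for part of the study (ENT-sham, 12 pigs, and ENT-BDL, 10 pigs). The other pigs stayed on PN with a soy lipid emulsion, Intralipid (SLE-sham, 10 pigs, and SLE-BDL, 11 pigs), or with a mixed lipid emulsion, SMOFlipid (MLE-sham, 9 pigs, and MLE-BDL, 8 pigs). Sterols were not part of the deposited table, so levels here are of mRNA in whole liver, where fewer cells of a type and less RNA per cell cannot be told apart.

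A library held 14469788 to 21374161 counted reads. Levels are given as CPM, each count divided by the TMM-scaled library size and expressed per 1000000 reads, and differences as log2 fold changes from 1 edgeR quasi-likelihood model of all 60 pigs. A gene passed the test at an adjusted p (Benjamini-Hochberg over 16210 tested genes) under 0.05, and all 8 members were tested. ENT-sham replicate 2 and ENT-BDL replicate 1 were nearly the same library: their counts differed by a chi-square of 1.91 per degree of freedom over 15841 genes, against 16.1 in the next closest of 1770 pairs. The fitted differences of the members were therefore also computed without both, and a value is given where it changed a result. Counts over gene lists and marker sums include both libraries. Replicates 9 and 10 of SLE-sham carry the same pig identifier, and their chi-square was 34.2, where the median within groups was 53.4. Whether they are 2 samples of 1 animal cannot be told apart from 2 animals here. They entered as 2, so that the error of SLE-sham may be too small if they are 1. Each identifier also holds a number with 8 values whose meaning was not given. Pigs of different groups with the same number had correlated residual expression (median r 0.129 over 177 pairs, against -0.0186 over 1318 other pairs), and MLE pigs carried only 4 of the 8 numbers, so the number was also used as a block ("identifier block").

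On the Sscrofa11.1 assembly, ABCG8 (chromosome 3, 96596975 to 96616224, minus strand) and ABCG5 (chromosome 3, 96616304 to 96656893, plus strand) lie head to head with 79 bases between them. At its other end the ABCG5 model overlaps DYNC2LI1, a dynein gene on the opposite strand (96656099 to 96703282), over 795 bases. Whether reads were counted by strand was not stated, so reads from the overlap cannot be assigned with certainty. DYNC2LI1 counts were 7.74% to 17.8% of ABCG5 counts in a pig (median 11.3%). NR1H3 (chromosome 2, 15315283 to 15336785, minus strand) overlaps ACP2 on the opposite strand over 2771 bases and MADD on its own strand over 177 bases. ACP2 counts were 40.6% to 95.8% of those of NR1H3, and MADD counts 25.1% to 48.8%. The models of the other members overlap no other gene. These are ABCA1 (chromosome 1, 246144277 to 246278492, minus strand), ABCG1 (chromosome 13, 205561897 to 205628428, plus strand), SCARB1 (chromosome 14, 28301421 to 28393568, plus strand), NR1H2 (chromosome 6, 55238536 to 55245457, plus strand), and NPC1L1 (chromosome 18, 50726854 to 50757676, plus strand).

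Per kb of gene model, SCARB1 had the highest mean level over all pigs, 57.5 CPM per kb. NR1H3 followed at 40.1 CPM per kb, ABCG8 at 29.6, NR1H2 at 20.4, ABCG5 at 19.3, and ABCA1 at 15.0. ABCG1 and NPC1L1 were far lower, at 2.21 and 1.39 CPM per kb. NPC1L1 also had the widest range of the members as a ratio of its highest to its lowest pig, from 0.829 CPM (17 counts) in one ENT-sham pig to 35.7 CPM in one MLE-BDL pig. The last pair lay well below the other 6 members, and counting error weighs most on NPC1L1 in sham pigs.

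**Figure D1:**
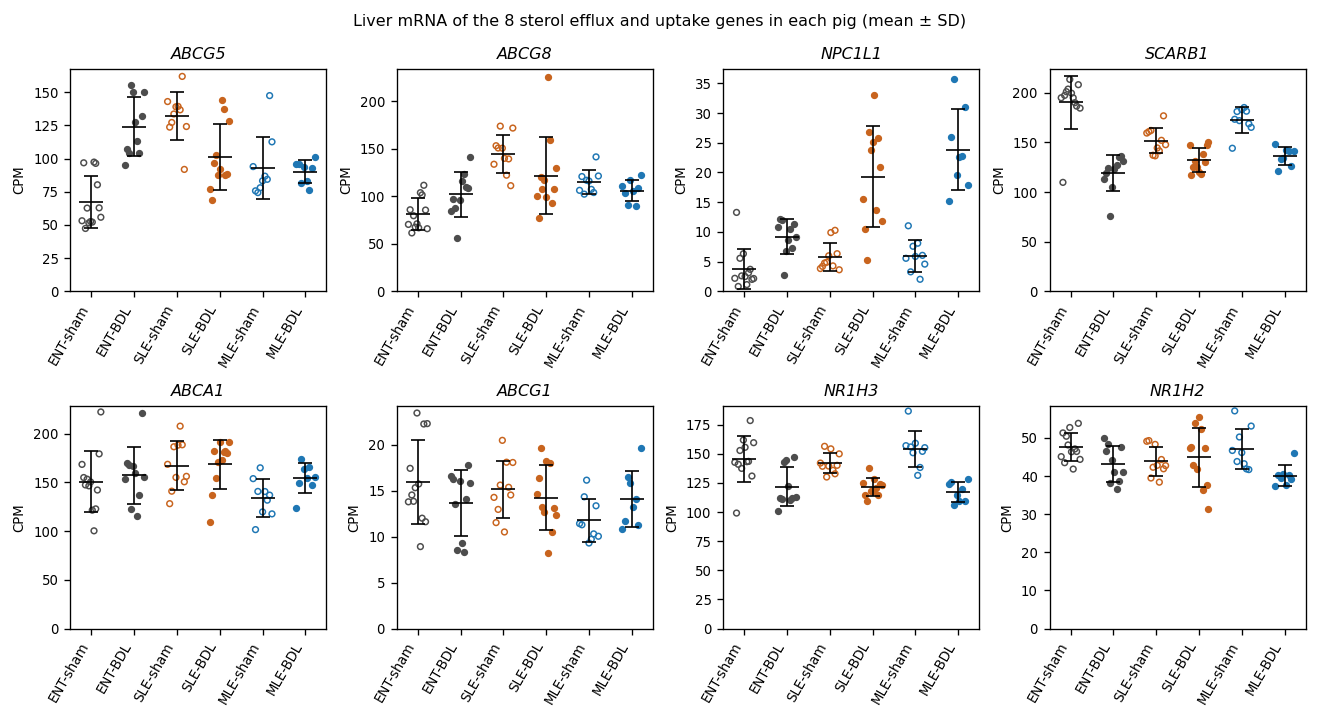
CPM of the 8 members in each pig (points, open for sham and filled for BDL), with the group mean and SD (black), by group on the x axis, each panel with its own y axis from 0. NPC1L1 was highest in the SLE-BDL and MLE-BDL pigs (means 19.3 and 23.8 CPM), ABCG5 lowest in ENT-sham (67.5 CPM), and SCARB1 highest in ENT-sham (190.4 CPM).

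The first comparison was between the lipid sources. In sham pigs ABCG5 was lower on the mixed than on the soy lipid, and it was the only one of the 8 members past the test, where 0.999% of all tested genes passed. In SLE-sham pigs ABCG5 ran from 91.9 to 161.9 CPM with a median of 135.2. In MLE-sham pigs it ran from 74.4 to 147.5 CPM with a median of 84.4. Of the 9 MLE-sham pigs, 6 lay below every SLE-sham pig, but the highest, replicate 8, lay above all but 1 of them. The difference was -0.51 ± 0.14 (log2, SE; adjusted p = 0.0493), or 29.6% lower.

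That ABCG5 call lay at the threshold. It was kept in 3 of 19 fits that each left out 1 pig, those without MLE-sham replicate 8 or 9 or SLE-sham replicate 9, and lost in the other 16, the fit without SLE-sham replicate 10 among them (log2 fold change -0.61 to -0.47, adjusted p 0.0149 to 0.127). It was lost too with the identifier block (-0.38, adjusted p = 0.205). Within the 4 identifier numbers that both sham groups carry, ABCG5 was lower on the mixed lipid in 3 and higher in 1 (-0.92 to 0.27). DYNC2LI1 was also lower in MLE-sham than in SLE-sham, with 8.91 ± 2.40 against 16.7 ± 4.33 CPM (SD; log2 fold change -0.91, adjusted p = 0.00266). Summed cholangiocyte markers moved in the same direction (372.9 ± 29.2 against 463.5 ± 49.6 CPM, 10 markers). Of the single cholangiocyte markers 1 of 10 was lower, where 0.999% of all genes passed (median -0.155). Summed hepatocyte markers were higher in MLE-sham (94070 ± 15300 against 83410 ± 9720 CPM), with 0 of 9 past the test. The part of DYNC2LI1 or of these cells in the ABCG5 difference was not tested.

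ABCG8, the partner subunit, ran from 111.0 to 173.6 CPM in SLE-sham (median 145.1) and from 102.2 to 141.3 CPM in MLE-sham (median 116.0). The groups overlapped, with 4 MLE-sham pigs below every SLE-sham pig. ABCG8 differed by -0.33 ± 0.13 and did not pass (adjusted p = 0.272), although it did when only the 2 groups compared entered the fit (adjusted p = 0.0468). With the identifier block the ABCG8 difference was -0.165 (adjusted p = 0.666). In BDL pigs the pair was closer still between the lipids in the fit without the block. ABCG5 had means of 101.0 ± 24.8 CPM in SLE-BDL and 90.1 ± 8.77 in MLE-BDL (log2 fold change -0.16, 95% interval -0.44 to 0.11). ABCG8 had means of 121.4 ± 40.6 and 105.8 ± 11.3 CPM (-0.20, 95% interval -0.46 to 0.07). For both genes every MLE-BDL pig lay within the range of the SLE-BDL pigs, which was the wider of the pair of ranges. The highest SLE-BDL pig was replicate 7 for both genes, at 144.1 CPM for ABCG5 and 225.4 CPM for ABCG8. Without it the differences were -0.11 for ABCG5 and -0.07 for ABCG8.

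None of the 8 members passed in MLE-BDL against SLE-BDL, where 0.907% of all genes passed in edgeR. At an unadjusted p under 0.05 there was 1 member, NR1H2, and DESeq2 called 0. Averaged over both surgeries, 1.93% of genes passed and again 0 members. Here 4 members had an unadjusted p under 0.05 (ABCG5, ABCG8, ABCA1, and SCARB1), and DESeq2 called 1, ABCG5. The averaged ABCG5 difference was -0.33 ± 0.10 (adjusted p = 0.0535), and it passed in 3 of 9 alternative fits. It passed without both matching ENT libraries (-0.34, adjusted p = 0.0356) and not with the identifier block (-0.24, adjusted p = 0.426). The response to BDL did not differ past the test between MLE and SLE for any member (0 of 8 in edgeR, where 0.265% of genes passed, 1 at an unadjusted p under 0.05, and 0 in DESeq2).

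ABCA1, the exporter of cholesterol to lipid-poor apoA-I, ran from 128.2 to 207.8 CPM in SLE-sham (median 162.5) and from 101.6 to 165.0 CPM in MLE-sham (median 137.0). The ranges overlapped, with 3 MLE-sham pigs below every SLE-sham pig. The difference was -0.32 ± 0.11 (adjusted p = 0.167), and with the identifier block it was -0.48 and passed (adjusted p = 0.0128). Averaged over surgery ABCA1 differed by -0.22 (adjusted p = 0.122), by -0.44 with the identifier block (adjusted p = 0.00997), and by -0.34 among pigs whose numbers occur on both lipids (adjusted p = 0.0244). Within each of the 4 shared numbers in sham pigs (-0.59 to -0.27), and each of the 2 in BDL pigs (-0.42 and -0.26), the difference had the same sign. ABCG1, which exports cholesterol to formed HDL, was at 15.1 ± 3.10 CPM in SLE-sham and 11.8 ± 2.35 in MLE-sham (-0.36 ± 0.16, adjusted p = 0.345).

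The uptake genes and the receptors did not pass between the lipids in either surgery group. SCARB1 was at 151.9 ± 12.9 CPM in SLE-sham and 172.7 ± 12.7 in MLE-sham (log2 fold change 0.19, 95% interval 0.02 to 0.35, adjusted p = 0.339). NPC1L1 was at 19.3 ± 8.49 CPM in SLE-BDL and 23.8 ± 6.86 in MLE-BDL, and its interval was the widest of the members (0.31, 95% interval -0.32 to 0.94). For this gene a difference of nearly 1 log2 unit could not be told from none. NR1H3 differed by 0.12 in sham pigs (95% interval -0.02 to 0.26) and by -0.05 in BDL pigs (95% interval -0.19 to 0.10). NR1H2 differed by 0.10 (95% interval -0.05 to 0.26) and by -0.16 (95% interval -0.32 to -0.01, adjusted p = 0.348).

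**Figure D2:**
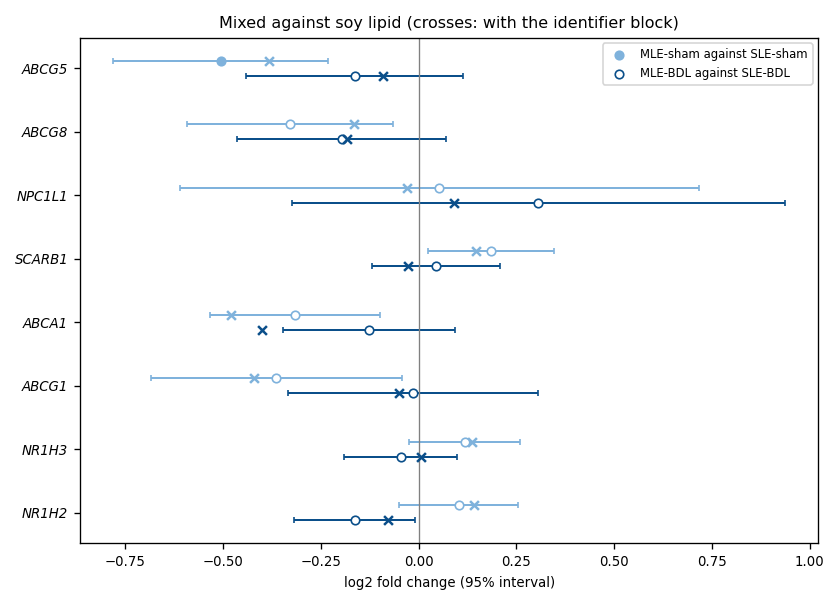
Log2 fold change of mixed against soy lipid for each member, in sham and BDL pigs, with 95% intervals from the edgeR model (filled circles passed the test, open circles did not, crosses are the same difference with the identifier block). ABCG5 in sham pigs is the only filled point, at -0.51, and the crosses of ABCA1 lie to the left of its circles.

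Other genes of the LXR pathway were described from lists. Fits with the identifier block or without 1 pig were made for the members only, so no list call was checked in this way. Of 11 tested LXR target genes outside the members, 2 were lower in MLE-sham than in SLE-sham and 0 higher, where 0.999% of all genes passed. The list median was -0.30, against 0.00 over all genes. These were LPL (lipoprotein lipase) and SMPDL3A, a phosphodiesterase. LPL was at 0.581 to 10.5 CPM in SLE-sham and 0.0558 to 0.538 CPM in MLE-sham, without overlap (-4.36 ± 0.65, adjusted p = 5.11e-05). At the MLE-sham levels a pig holds few LPL counts, so the size of this change is uncertain. SMPDL3A was at 34.3 ± 8.68 against 13.2 ± 5.10 CPM (-1.38 ± 0.25, adjusted p = 0.00109). Averaged over surgery LPCAT3, which remodels phospholipids, was lower as well (-0.38 ± 0.10, adjusted p = 0.0293), where 1.93% of all genes passed. In MLE-BDL against SLE-BDL the list had 0 calls in edgeR and DESeq2 and 2 genes at an unadjusted p under 0.05.

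Of the other canalicular transporters, ABCB4, the phospholipid floppase, was lower in MLE-sham than in SLE-sham (56.0 ± 12.5 against 142 ± 73.4 CPM, -1.34 ± 0.30, adjusted p = 0.0111). The bile salt export pump ABCB11 was lower on average over surgery (-0.51 ± 0.13, adjusted p = 0.0189). They were the calls among 6 tested genes of that list, where 0.999% of all genes passed in sham pigs and 1.93% on average. Among 5 tested genes that make or clear oxysterols, the LXR ligands, CYP27A1 (sterol 27-hydroxylase) was lower on average (-0.38 ± 0.09, adjusted p = 0.0121). In MLE-BDL against SLE-BDL both lists had 0 calls in edgeR and DESeq2. At an unadjusted p under 0.05 there were 3 canalicular and 2 oxysterol genes.

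The second comparison was between BDL and sham pigs on each diet. NPC1L1 was higher in BDL pigs on all 3 diets and had the largest change of any member. It ran from 0.829 to 13.3 CPM in ENT-sham (median 2.55) and from 2.69 to 12.2 CPM in ENT-BDL (median 9.78). It ran from 3.63 to 10.3 CPM in SLE-sham (median 4.83) and from 5.22 to 33.0 CPM in SLE-BDL (median 20.9), where 10 of the 11 BDL pigs lay above every sham pig. In MLE pigs it ran from 2.03 to 11.03 CPM (median 5.87) after sham surgery and from 15.2 to 35.7 CPM (median 22.7) after BDL, without overlap.

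The log2 change of NPC1L1 with BDL was 1.26 ± 0.31 on ENT (adjusted p = 0.00247), 1.73 ± 0.32 on SLE (adjusted p = 0.000687), and 1.98 ± 0.35 on MLE (adjusted p = 4.99e-05). These are 2.39-, 3.32-, and 3.96-fold. NPC1L1 was higher with BDL within every identifier number that both surgeries share, 6 on ENT, 4 on SLE, and 4 on MLE. The ENT-sham pig at 13.3 CPM was replicate 2, one of the matching libraries, and the next highest ENT-sham pig was at 6.33 CPM. Without both matching libraries the ENT change was 1.61 (adjusted p = 3.55e-05). The difference of the SLE or MLE change from the ENT change did not pass (0.48, 95% interval -0.40 to 1.35, and 0.73, 95% interval -0.19 to 1.65).

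ABCG5 rose with BDL on the enteral diet. It ran from 47.4 to 97.4 CPM in ENT-sham (median 59.3) and from 94.9 to 155.6 CPM in ENT-BDL (median 120.5). Of the 10 ENT-BDL pigs, 9 lay above every ENT-sham pig, and the other was replicate 1, one of the matching libraries. The change was 0.88 ± 0.13 (adjusted p = 1.17e-06, 1.84-fold), and 0.97 without both matching libraries. On PN it did not rise. ABCG5 ran from 69.1 to 144.1 CPM in SLE-BDL (median 92.1), and 5 of these 11 pigs lay below every SLE-sham pig (-0.39 ± 0.13, adjusted p = 0.0709). The highest of them was replicate 7, and without it ABCG5 fell past the test (-0.46, adjusted p = 0.0303). In MLE-BDL it ran from 76.0 to 101.3 CPM (median 93.3), and the change from MLE-sham was -0.05 ± 0.14.

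The difference between the ABCG5 responses was tested directly. The SLE response lay 1.27 ± 0.18 log2 units below the ENT response (-1.27, adjusted p = 2.42e-05), and the MLE response 0.92 ± 0.19 below it (-0.92, adjusted p = 0.0423). Of the 8 members, 2 passed in the first of these interactions, where 2.33% of genes passed, and 1 in the second, where 0.0617% passed. The MLE interaction was lost in 18 of 39 fits that each left out 1 pig (-0.99 to -0.83, adjusted p 0.0102 to 0.0761). These left out 7 of the MLE-BDL pigs, 5 of the MLE-sham pigs, 3 of the ENT-sham pigs, or 3 of the ENT-BDL pigs in turn. DYNC2LI1 had a like pattern: it rose with BDL on ENT (0.81, adjusted p = 0.000187), and its SLE response lay below its ENT response (-1.29, adjusted p = 0.000682). Its MLE interaction did not pass (-0.48, adjusted p = 0.557).

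ABCG8 ran from 61.4 to 111.5 CPM in ENT-sham (median 75.2) and from 56.4 to 140.8 CPM in ENT-BDL (median 102.8). Of the ENT-BDL pigs, 3 lay above every sham pig and 1, replicate 4, below. The change was 0.33 ± 0.12 (adjusted p = 0.0488), and it was lost in 15 of 22 fits that each left out 1 pig (0.27 to 0.41, adjusted p 0.0116 to 0.119). It passed in 3 of 8 other alternative fits (adjusted p up to 0.0845), and DESeq2 was among those that lost it (adjusted p = 0.0551). On SLE it was -0.25 ± 0.13 (adjusted p = 0.269), with 6 of 11 BDL pigs below every sham pig and 1, replicate 7 at 225.4 CPM, above. Without that pig it passed (-0.39, adjusted p = 0.0358). The SLE response lay below the ENT response by a margin that did not pass (-0.59 ± 0.18, adjusted p = 0.0565) and passed without both matching libraries (-0.62, adjusted p = 0.0347), without SLE-BDL replicate 7 (-0.73, adjusted p = 0.00446), and with the replicate block (-0.60, adjusted p = 0.0484).

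SCARB1 moved in the other direction. It ran from 109.8 to 213.5 CPM in ENT-sham (median 196.2) and from 75.9 to 136.3 CPM in ENT-BDL (median 124.2). The sham pig at 109.8 CPM was again replicate 2. The next lowest ENT-sham pig was at 184.6 CPM, so apart from it the groups did not overlap. The change was -0.67 ± 0.08 (adjusted p = 5.22e-09), and -0.73 without both matching libraries. On MLE, SCARB1 fell from 144.2 to 185.2 CPM (median 173.4) to 121.7 to 148.1 CPM (median 137.7), with 7 of 8 BDL pigs below every sham pig (-0.34 ± 0.09, adjusted p = 0.0034). On SLE the ranges were 136.5 to 176.8 and 117.6 to 150.1 CPM, and the change did not pass (-0.20 ± 0.08, adjusted p = 0.121) unless both matching ENT libraries were left out of the model (-0.21, adjusted p = 0.0459). The SLE response was smaller than the ENT response (0.47 ± 0.11, adjusted p = 0.00826).

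NR1H3 was lower in BDL pigs on every diet. On MLE it ran from 131.4 to 186.6 CPM in sham pigs (median 155.2) and from 106.2 to 128.7 CPM in BDL pigs (median 117.1), without overlap (-0.39 ± 0.08, adjusted p = 0.000161). On SLE it ran from 130.0 to 156.3 CPM (median 139.7) and from 109.3 to 137.7 CPM (median 120.2), with 10 of 11 BDL pigs below every sham pig (-0.23 ± 0.07, adjusted p = 0.0352). On ENT it ran from 99.1 to 178.4 CPM (median 143.3) and from 101.3 to 146.8 CPM (median 112.7), and differed by -0.26 ± 0.07 (adjusted p = 0.0041). The sham pig at 99.1 CPM was replicate 2, and the next lowest was at 130.9 CPM, so that the ranges overlapped less without it. The change was -0.28 without both matching libraries (adjusted p = 0.000629). The SLE call was lost in 8 of 21 fits that each left out 1 pig (adjusted p up to 0.0699). Its neighbour ACP2 fell with BDL on ENT (-0.39, adjusted p = 0.000345) and MLE (-0.42, adjusted p = 0.000913), and MADD on ENT (-0.39, adjusted p = 0.000598), so the share of NR1H3 reads from the overlaps cannot be told apart.

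NR1H2, the more widely expressed LXR, was at 47.1 ± 5.35 CPM in MLE-sham and 40.1 ± 2.66 in MLE-BDL, with 7 of 8 BDL pigs below every sham pig (-0.23 ± 0.08, adjusted p = 0.0427). This call was lost in 10 of 17 fits that each left out 1 pig (adjusted p 0.0225 to 0.0863). On ENT it was at 47.6 ± 3.78 and 43.2 ± 4.73 CPM, and on SLE at 43.9 ± 3.87 and 44.9 ± 7.70 CPM, with neither change past the test. ABCA1 and ABCG1 did not pass with BDL on any diet. The intervals for ABCA1 were -0.14 to 0.26 on ENT, -0.19 to 0.22 on SLE, and -0.03 to 0.43 on MLE. For ABCG1 they were -0.52 to 0.08, -0.39 to 0.22, and -0.07 to 0.60.

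Members past the test numbered 5 of 8 on ENT (3 higher and 2 lower), where 17.4% of all genes passed, 2 of 8 on SLE (1 and 1), where 4.54% passed, and 4 of 8 on MLE (1 and 3), where 14.4% passed. Only NPC1L1 changed by more than 2-fold. The median of the 8 changes was -0.04 on ENT, -0.14 on SLE, and -0.08 on MLE, against 0.01, 0.01, and 0.00 over all genes.

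**Figure D3:**
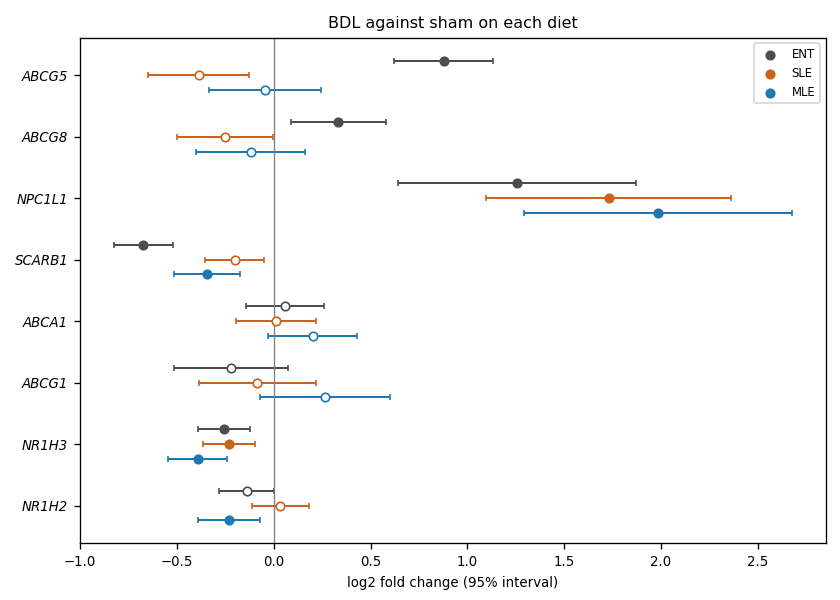
Log2 fold change of BDL against sham for each member on ENT, SLE, and MLE, with 95% intervals from the edgeR model (filled circles passed the test, open circles did not). NPC1L1 lies right of 0 on all 3 diets (1.26, 1.73, and 1.98), NR1H3 left of 0 on all 3, and ABCG5 right of 0 on ENT only (0.88).

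Marker sums of other cells also differed with BDL, and their part in the members' changes was not tested. Hepatocyte markers (9 of 10 counted) summed to 50120 to 123800 CPM in ENT-sham and 50080 to 95460 in ENT-BDL, 70570 to 99790 in SLE-sham and 49600 to 105800 in SLE-BDL, and 73320 to 123800 in MLE-sham and 48220 to 63090 in MLE-BDL. Cholangiocyte markers (10 of 10) summed to 227.7 to 585.8 and 379.7 to 583.2 CPM on ENT, 366.3 to 559.1 and 418.2 to 611.3 on SLE, and 343.0 to 433.0 and 428.3 to 640.9 on MLE. Mean hepatocyte sums in sham and BDL pigs were 106300 and 68310 CPM on ENT, 83410 and 74570 on SLE, and 94070 and 57130 on MLE. Mean cholangiocyte sums were 319.7 and 471.5 CPM on ENT, 463.5 and 515.4 on SLE, and 372.9 and 518.7 on MLE. The ranges of sham and BDL pigs overlapped for both sums on each diet, except for the hepatocyte sum on MLE. On ENT the lowest hepatocyte sums (50120 and 50080 CPM) and the highest cholangiocyte sums (585.8 and 583.2 CPM) nearly coincided. Both matching libraries are in these ranges, and the ENT overlap was not checked without them. Of the single markers, 5 of 9 hepatocyte genes were lower on ENT and 6 of 9 on MLE (median -0.35 and -0.55, and -0.07 on SLE). Likewise 5 of 10 cholangiocyte genes were higher on ENT, 1 on SLE, and 6 on MLE. Over all genes 17.4% passed on ENT, 4.54% on SLE, and 14.4% on MLE. No hepatocyte or cholangiocyte marker was at 0 in any pig.

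Stellate markers (9 of 9) had mean sums of 1765 and 2921 CPM on ENT, 2286 and 3365 on SLE, and 1936 and 4063 on MLE, sham then BDL. Macrophage markers (12 of 12), which mark cells rich in ABCA1 and ABCG1, had mean sums between 1481 CPM in MLE-BDL and 2217 CPM in ENT-sham. Endothelial markers (8 of 8) ranged between group means of 715.7 and 827.1 CPM and blood markers (10 of 10) between 268.5 and 1307. For intestine, the tissue in which NPC1L1 is best known, 7 of 8 markers were counted. Their mean sums lay between 36.7 and 87.7 CPM, and the markers were split. FABP2, SI, and CDX1 had no count in 50, 51, and 52 of the 60 pigs and at most 3 counts in the others, and CDX2 had none in 4 pigs. VIL1, LCT, and APOA4 were counted in every pig, with APOA4 at up to 156 CPM.

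The third comparison set PN against enteral feeding. Among sham pigs ABCG5 and ABCG8 were higher on both PN diets. ABCG5 on SLE was 0.97 ± 0.13 above ENT-sham (adjusted p = 2.16e-08, 1.96-fold), with 9 of 10 SLE-sham pigs above every ENT-sham pig. On MLE it was 0.46 ± 0.13 above (adjusted p = 0.00691), with 2 of 9 pigs above every ENT-sham pig. ABCG8 was 0.84 ± 0.12 above on SLE (adjusted p = 2.79e-07), with 9 of 10 pigs above every ENT-sham pig, and 0.51 ± 0.13 above on MLE (adjusted p = 0.002), with 5 of 9. Both genes thus had their lowest group mean in ENT-sham, at 67.5 ± 19.7 and 80.8 ± 16.8 CPM, and their highest in SLE-sham, at 132.1 ± 18.0 and 144.5 ± 19.8 CPM. DYNC2LI1, which overlaps ABCG5, was also higher in SLE-sham (1.09, adjusted p = 3.12e-07), and differed by 0.18 in MLE-sham (adjusted p = 0.479). Marker sums also differed between these groups. From ENT-sham to SLE-sham and MLE-sham the mean hepatocyte sum was 106300, 83410, and 94070 CPM, the cholangiocyte sum 319.7, 463.5, and 372.9 CPM, and the blood sum 1200, 455.5, and 560.8 CPM. The most abundant genes weigh most in such sums. In SLE-sham against ENT-sham the median marker differed by -0.29 for hepatocytes (4 of 9 lower), by 0.00 for cholangiocytes (3 of 10 higher), and by 0.11 for blood (2 of 9 lower). In MLE-sham the medians were -0.08 (2 of 9 lower), 0.06 (2 of 10 higher), and 0.04 (2 of 9 lower). Over all genes 27.5% passed for SLE-sham and 21.1% for MLE-sham, and the cholangiocyte and blood counts lay near these shares. The part of these in the members' differences was not tested.

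SCARB1 was lower in SLE-sham than in ENT-sham (-0.33 ± 0.08, adjusted p = 0.000671). In MLE-sham the difference was -0.14 ± 0.08 (adjusted p = 0.201), and -0.20 without both matching libraries, which passed (adjusted p = 0.0222). NPC1L1 was 0.60 ± 0.31 (adjusted p = 0.156) above ENT-sham in SLE-sham and 0.65 ± 0.32 (adjusted p = 0.145) in MLE-sham. Both passed without the matching libraries, at 0.98 (adjusted p = 0.00776) and 1.03 (adjusted p = 0.00831), and likewise without ENT-sham replicate 2 alone, at 0.98 (adjusted p = 0.00724) and 1.03 (adjusted p = 0.00777). ABCG1 was lower in MLE-sham than in ENT-sham, at 11.8 ± 2.35 against 15.9 ± 4.61 CPM (-0.44 ± 0.15, adjusted p = 0.0343). That call was lost in 7 of 21 fits that each left out 1 pig (adjusted p up to 0.0762) and with the identifier block (adjusted p = 0.0851). ABCA1 differed from ENT-sham by -0.17 in MLE-sham (adjusted p = 0.265), and by -0.40 with the identifier block (adjusted p = 0.0111). In all, 3 of 8 members passed on each PN diet (2 higher, 1 lower), where 27.5% of genes passed for SLE-sham and 21.1% for MLE-sham.

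Among BDL pigs ABCG5 was higher on neither PN diet. It was lower in MLE-BDL than in ENT-BDL, with 5 of 8 MLE-BDL pigs below every ENT-BDL pig (-0.46 ± 0.14, adjusted p = 0.0177), although not past the test with the identifier block (-0.43, adjusted p = 0.0604). The lowest ENT-BDL pig, at 94.9 CPM, was replicate 1 of the matching libraries. The next was at 104.1 CPM, above all 8 MLE-BDL pigs (up to 101.3 CPM), and without both libraries the difference was -0.50 (adjusted p = 0.00855). In SLE-BDL, 6 of 11 pigs lay below every ENT-BDL pig and the difference did not pass (-0.30 ± 0.13, adjusted p = 0.0985). It passed with the identifier block (-0.34, adjusted p = 0.0438) and without SLE-BDL replicate 7 (-0.37, adjusted p = 0.039). ABCG8 did not pass on either lipid (0.25, 95% interval 0.00 to 0.50, and 0.05, 95% interval -0.22 to 0.33), and the first difference was 0.11 without SLE-BDL replicate 7 (adjusted p = 0.527). NPC1L1 was higher on both, by 1.07 ± 0.31 in SLE-BDL (adjusted p = 0.0091), with 8 of 11 pigs above every ENT-BDL pig, and by 1.38 ± 0.33 in MLE-BDL (adjusted p = 0.00177), with all 8 pigs above. Of the 8 members 1 passed for SLE-BDL, where 19.6% of genes passed, and 2 for MLE-BDL, where 16.8% passed. Comparisons on the same diet or surgery share pigs, and are given side by side for that reason.

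**Figure D4:**
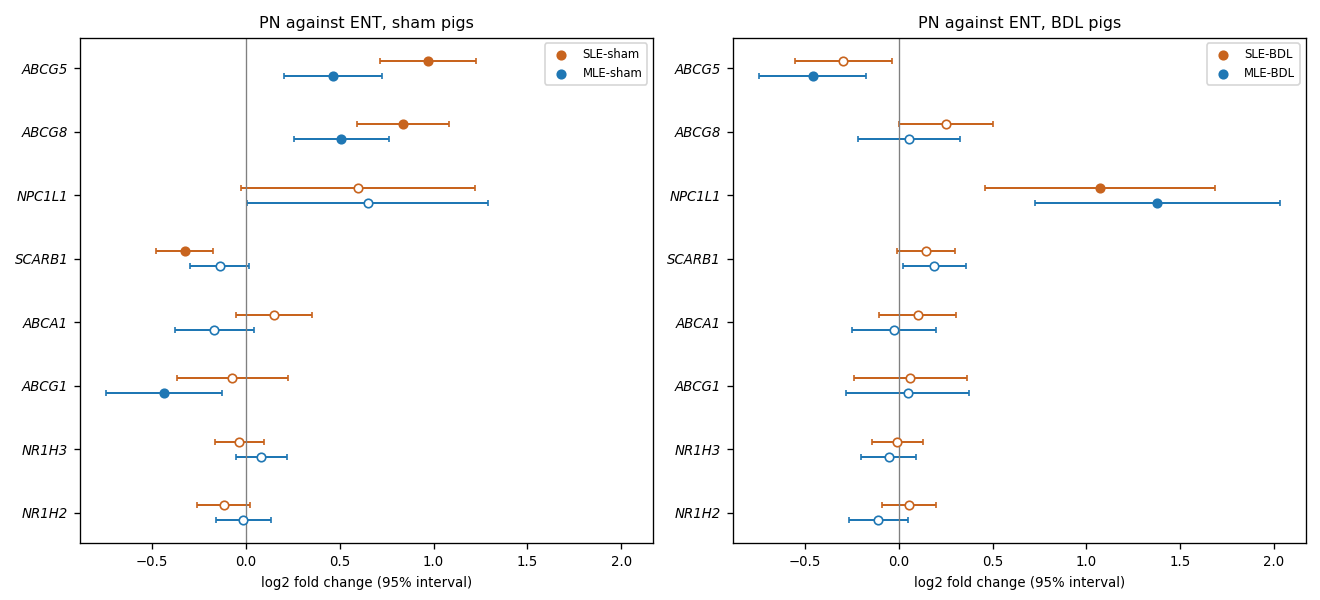
Log2 fold change of each PN diet against ENT for each member, among sham pigs (left) and BDL pigs (right), with 95% intervals from the edgeR model (filled circles passed the test, open circles did not). ABCG5 lies right of 0 in sham pigs (0.97 and 0.46) and left of 0 in BDL pigs (-0.30 and -0.46), while NPC1L1 lies right of 0 in BDL pigs (1.07 and 1.38).

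In order of group means, ABCG5 ran from ENT-sham (67.5 CPM) through MLE-BDL, MLE-sham, SLE-BDL, and ENT-BDL to SLE-sham (132.1 CPM). Of these neighbours only ENT-sham and MLE-BDL differed by more than the larger of their SDs. No neighbours in the order of ABCG8, ABCA1, ABCG1, or NR1H2 did so. For SCARB1 these were the steps from MLE-BDL to SLE-sham (136.1 to 151.9 CPM) and from SLE-sham to MLE-sham (172.7 CPM). For NR1H3 it was the step from ENT-BDL to SLE-sham (121.7 to 142.0 CPM), which divided all BDL groups from all sham groups. For NPC1L1 these were the steps from MLE-sham to ENT-BDL (6.01 to 9.15 CPM) and from ENT-BDL to SLE-BDL (19.3 CPM).

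Because the subunits of the heterodimer moved unequally, the ratio of ABCG5 to ABCG8 counts was taken in each pig, a measure chosen after the members' values were seen. The raw ratio depends on the lengths of both models and on the DYNC2LI1 overlap, so only its differences between groups are read. It was 0.827 ± 0.122 in ENT-sham (0.720 to 1.13, median 0.777) and 1.3 ± 0.54 in ENT-BDL (0.924 to 2.76, median 1.11). Of the 10 ENT-BDL pigs, 4 lay above every ENT-sham pig. The highest ENT-sham pig was replicate 2, one of the matching libraries, and the next was at 0.951. On the soy lipid the mean ratio was 0.925 ± 0.155 after sham surgery and 0.851 ± 0.106 after BDL. On the mixed lipid these means were 0.803 ± 0.133 and 0.853 ± 0.049.

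On the log2 scale the mean ratio was 0.59 higher in ENT-BDL than in ENT-sham, and against ENT-BDL the difference was -0.54 in SLE-BDL and -0.53 in MLE-BDL. Since the ratio was chosen for this difference, no test of it is given. Of the pigs of each PN group after BDL, 7 lay below every ENT-BDL pig. ENT-BDL replicate 4 stood apart with a ratio of 2.76, where the next highest was 1.56, and without it the first difference was 0.46. In MLE-sham against SLE-sham the difference was -0.20, with 3 MLE-sham pigs below every SLE-sham pig.

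**Figure D5:**
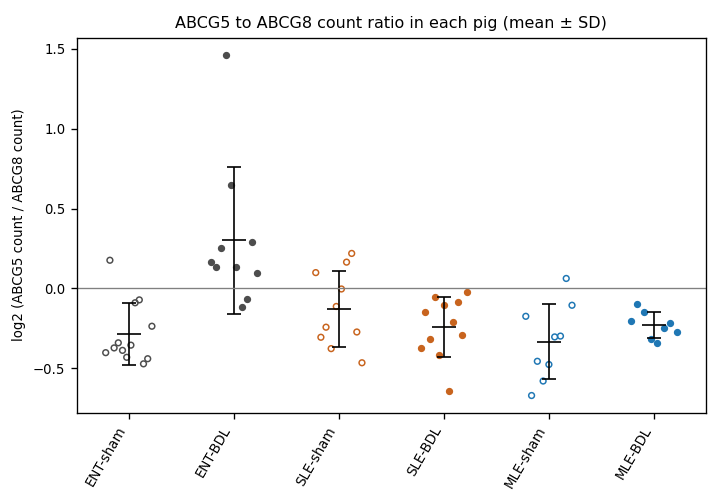
Log2 ratio of ABCG5 to ABCG8 counts in each pig (points, open for sham and filled for BDL) by group, with the group mean and SD (black) and a line at equal counts. Of the 6 groups, ENT-BDL has the highest mean (0.30), and its highest pig has a ratio of 2.76. The line marks equal counts and not equal expression, since the ratio depends on the lengths of both models.

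After group means were subtracted, ABCG5 and ABCG8 still varied together over the 60 pigs (Pearson r 0.609, Spearman rho 0.638, permutation p of r adjusted over 7 pairs = 0.00014). Without the 2 pigs farthest from the median, r was 0.582, and with the identifier number subtracted 0.465. Within groups r ran from -0.06 in ENT-BDL to 0.895 in SLE-BDL and was positive in 5 of 6. ABCA1 and ABCG1 also varied together (r 0.426, rho 0.337, permutation p adjusted = 0.0064), with r 0.404 without the 2 farthest pigs and 0.434 with the number subtracted. NR1H3 showed no relation past the threshold with ABCG5, ABCG8, ABCA1, ABCG1, or SCARB1 (r -0.09 to 0.197, permutation p adjusted 0.5 to 0.89). Within groups its r with ABCG5 ran from -0.328 in ENT-sham to 0.766 in ENT-BDL. Its r with SCARB1 ran from -0.417 in ENT-BDL to 0.738 in ENT-sham, and over all pigs it was -0.206 without both matching libraries.

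The genes whose pattern was most like that of each member were taken from 10805 named genes by Pearson r of group-subtracted log2 CPM over the 60 pigs, as a description. For ABCG5 they were DYNC2LI1 (r 0.78), which overlaps it, and ABCB11 (0.663). For ABCG8 they were SLC6A11 (0.696) and MED12 (0.675), for NPC1L1 CLIP2 (0.642) and STRC (0.636), and for SCARB1 ESPN (0.728) and EXTL1 (0.708). For ABCA1 they were DIP2B (0.755) and WNK1 (0.693), for ABCG1 RCSD1 (0.684) and ARAP3 (0.668), for NR1H3 GAMT (0.715) and TOR1A (0.715), and one of those for NR1H2 was CCDC88B (0.584). All pigs share depth and library steps, which such values also hold.

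Sterol synthesis genes regulated by SREBP-2 were set beside the exporters. Of 12 tested, 8 were higher and 0 lower in SLE-sham than in ENT-sham, and likewise 8 and 0 in MLE-sham, where 27.5% and 21.1% of all genes passed. With BDL 5 were higher and 0 lower on ENT (17.4% of all genes passed). On SLE (4.54%) 0 passed in edgeR and DESeq2, with 2 at an unadjusted p under 0.05, and on MLE (14.4%) 0 were higher and 1 lower. In the interactions with ENT, 4 genes were lower on SLE and 2 on MLE, where 2.33% and 0.0617% of all genes passed. Among those higher on ENT were HMGCS1 (230 ± 119 to 712 ± 195 CPM, 1.63 ± 0.20, adjusted p = 6.28e-08) and SQLE (0.73 ± 0.12, adjusted p = 2e-05). The list medians were 0.38 in both sham comparisons and 0.25, -0.06, and -0.11 with BDL on ENT, SLE, and MLE, against -0.01, -0.01, 0.01, 0.01, and 0.00 over all genes. ENT-sham was the lowest group mean for HMGCS1 and SQLE, as it was for ABCG5 and ABCG8. None of the 12 passed in the 3 comparisons of MLE with SLE, in edgeR at either an adjusted or an unadjusted p, or in DESeq2.

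Of 7 transcription factors known to act on ABCG5 and ABCG8, 3 were lower with BDL on ENT and 0 higher, where 17.4% of all genes passed. They were NR0B2, or SHP (29.4 ± 6.54 to 17.8 ± 6.49 CPM, -0.72 ± 0.16, adjusted p = 0.00056), NR5A2, or LRH-1 (-0.27 ± 0.08, adjusted p = 0.0121), and NR1H4, or FXR (-0.22 ± 0.07, adjusted p = 0.012). NR5A2 was lower with BDL on MLE too (-0.38 ± 0.09, adjusted p = 0.0019), as 1 of 7 where 14.4% of all genes passed. Of 6 tested LXR partners and cofactors, 1 was lower with BDL on ENT, near the 17.4% over all genes. It was RXRA, the obligate heterodimer partner (316 ± 46.5 to 244 ± 59.6 CPM, -0.37 ± 0.10, adjusted p = 0.00858). In the comparisons of MLE with SLE neither of these lists had a call in edgeR or DESeq2, and at an unadjusted p under 0.05 the first had 3 genes in BDL pigs and 0 in sham pigs and the second 0 in both.

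With BDL the LXR targets outside the members were split. On ENT 2 of 11 were higher and 2 lower, on MLE 3 and 2, and on SLE 0 passed in edgeR and DESeq2, with 0 at an unadjusted p under 0.05. Over all genes 17.4%, 14.4%, and 4.54% passed on ENT, MLE, and SLE. LPL rose on ENT (0.203 ± 0.256 to 1.76 ± 0.83 CPM, 3.03 ± 0.58, adjusted p = 0.000114) and on MLE (3.79 ± 0.66, adjusted p = 5.25e-05), in each case from few counts in the sham pigs. SMPDL3A rose on the same diets (0.73 ± 0.22, adjusted p = 0.0157, and 1.02 ± 0.25, adjusted p = 0.0035). CYP7A1, the rate-limiting enzyme of bile acid synthesis from cholesterol, rose on all 3 diets, from 12.2 ± 16.0 to 70.1 ± 43.8 CPM on ENT, from 0.833 ± 0.845 to 9.51 ± 10.1 on SLE, and from 0.503 ± 0.756 to 3.52 ± 2.11 on MLE (adjusted p 0.00051, 0.00155, and 0.014). Sham pigs on PN held few CYP7A1 counts. By quantitative PCR the paper reported a rise with BDL on ENT but no increase on MLE.

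Of 10 genes of HDL assembly and turnover, the particles that ABCA1 and ABCG1 load and SCARB1 unloads, 5 were lower and 0 higher with BDL on MLE, where 14.4% of all genes passed, and 3 and 0 on ENT, where 17.4% did. On SLE, where 4.54% of all genes passed, 0 of 10 passed in edgeR and 0 in DESeq2, and 4 had an unadjusted p under 0.05. APOA1, the HDL scaffold, fell from 9810 ± 2450 to 5740 ± 539 CPM on MLE (-0.77 ± 0.16, adjusted p = 0.000442). In MLE-BDL against SLE-BDL, APOC3 was lower (1410 ± 229 against 2230 ± 854 CPM, -0.66 ± 0.15, adjusted p = 0.0195). LIPG, endothelial lipase, also passed (-2.05 ± 0.53, adjusted p = 0.041), but 1 SLE-BDL pig was at 216 CPM where the SLE-BDL median was 7.63 and the MLE-BDL median 7.12 CPM. Of 15 genes of intracellular sterol traffic, 2 were higher and 4 lower with BDL on ENT, with GRAMD1B (-0.68 ± 0.13, adjusted p = 7.46e-05) and OSBPL5 (-0.56 ± 0.15, adjusted p = 0.00683) the largest falls. SOAT2, which esterifies cholesterol in hepatocytes, was lower with BDL on MLE (-0.49 ± 0.12, adjusted p = 0.00234), as was SCARB1.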

How the data were processed

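Liver RNA of 60 pigs was sequenced as paired-end poly-A libraries (NEBNext Ultra). The authors aligned reads to Sscrofa11.1 with HISAT2 2.0.5, predicted transcripts with StringTie 1.3.3, and counted reads per gene with featureCounts 1.5.0-p3. They deposited these counts without normalization for 30359 features. Of these, 24 without a gene name (0.0084% to 0.041% of the reads of a library) were left out. Strand setting and the unit counted (read or fragment) are not given in the sources used here.

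Groups came from the labels, and each sample was taken as 1 pig, so p-values measure the spread between pigs. Genes were kept by filterByExpr, scaled by TMM (factors 0.852 to 1.2), and tested with glmQLFit (robust) and glmQLFTest in edgeR 4.0.16 (R 4.3.3), with DESeq2 1.42.0 as an alternative. Model intervals are 95%. Correlations used two-sided permutation tests (100000 resamples) in scipy 1.17.1 (Python 3.11.15), and plots used matplotlib 3.10.9. Functions were tested on simulated data. The members and gene lists were chosen with earlier results of these data known. Of each list, up to 3 genes past the test are named, by size of change between MLE and SLE and then with BDL; some named by these rules are not reported here. CYP51A1, IDI1, INSIG2, CETP, CYP7B1, CYP46A1, TF, and ALPI were not used here. Replicate numbers were not a pairing: residual correlations over 137 same-numbered pairs ran from -0.231 to 0.381 (median -0.0173).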

Additional observations from a re-analysis of the deposited data

Results flagged for a closer look

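In 6 of 32 sets of 1 member in 1 group of at most 10 pigs, a pig lay apart from the others by Dixon's test at the 95% level, which chance gives in about 5% of sets. They were MLE-sham replicate 8 for ABCG8 (141.3 CPM, next 121.2), ENT-BDL replicate 9 for ABCA1 (221.7 CPM, next 170.4), and MLE-sham replicate 2 for NR1H3 (186.6 CPM, next 159.0). The others were ENT-BDL replicate 4 for SCARB1 (75.9 CPM, next 105.5), MLE-sham replicate 1 for SCARB1 (144.2 CPM, next 165.2), and MLE-BDL replicate 8 for NR1H2 (46.0 CPM, next 40.6). ENT-BDL replicate 4 was also the lowest ENT-BDL pig for ABCG8 and NPC1L1 and the highest for ABCG5.

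The response to BDL differed from that on ENT, by the test of the difference itself, for ABCG5 on SLE (-1.27), for SCARB1 on SLE (0.47), and for ABCG5 on MLE (-0.92).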

How the results depend on the processing

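The number of members past the test in MLE-sham against SLE-sham (1) was 0 with RLE size factors, no filter, at least 10 counts in every pig, shared identifier numbers only, or a 2-fold minimum, 2 on the groups compared alone, and 0 to 1 leaving out 1 pig. Averaged over surgery (0) it was 1 with the identifier block, the groups compared alone, both matching ENT libraries left out, shared numbers only, or DESeq2, and 0 to 1 leaving out 1 pig. In SLE-BDL against SLE-sham (2) it was 1 without a filter and 1 to 4 leaving out 1 pig (4 without SLE-BDL replicate 7), and in MLE-sham against ENT-sham (3) it was 5 without both matching libraries and 2 to 5 leaving out 1 pig (5 without ENT-sham replicate 2, 2 without ENT-sham replicate 6). With the identifier block it was 2 in SLE-BDL and 1 in MLE-BDL, each against ENT-BDL, and leaving out 1 pig gave 1 to 2 in the former. A 2-fold minimum left 1 member with BDL on each diet, 0 in both sham comparisons with ENT, 1 in MLE-BDL against ENT-BDL, and 1 and 0 in the SLE and MLE interactions with ENT. Without a fold minimum the count in the MLE interaction (1) was 0 to 1 leaving out 1 pig. In ENT-BDL against ENT-sham (5) the count was 4 with DESeq2 and 4 to 5 leaving out 1 pig. The causes were not tested.

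Small differences changed sign. In MLE-BDL against SLE-BDL, ABCG1 became 0.227, NR1H2 0.0379, and SCARB1 -0.0767 with shared numbers only, SCARB1 became -0.0271 and NR1H3 0.0047 with the identifier block, and ABCG1 ran from -0.0966 to 0.0332 leaving out 1 pig. In sham pigs NPC1L1 became -0.0301 (identifier block), -0.0115 (replicate block), and -0.184 (shared numbers), and ran from -0.108 to 0.184 leaving out 1 pig. Averaged, NR1H2 became 0.0312 (identifier block) and 0.103 (shared numbers). The r of NR1H3 became 0.0909 with ABCA1 (number subtracted), -0.022 with ABCG8 and -0.142 with SCARB1 (without the 2 farthest pigs), and -0.206 with SCARB1 (without both matching libraries). On the log2 scale the ABCG5 to ABCG8 ratio, MLE-sham against ENT-sham, became 0.0141 (number subtracted), and the ratio ran from -0.0278 to 0.0346 in MLE-BDL against SLE-BDL leaving out 1 pig.

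Since same-numbered pigs were not paired, the replicate block was an alternative only. It kept 42 of 47 results in direction and on their side of the threshold, reversed 1, and lost 4 calls: ABCG8 with BDL on ENT (0.32, adjusted p = 0.0668), NR1H3 with BDL on SLE (-0.23, adjusted p = 0.0566), NR1H2 with BDL on MLE (-0.22, adjusted p = 0.0608), and ABCG1 in MLE-sham against ENT-sham (-0.39, adjusted p = 0.0844). Of differences outside these 47, ABCG5 with BDL on SLE (-0.42, adjusted p = 0.0391) and ABCG8 in the SLE interaction with ENT (-0.60, adjusted p = 0.0484) passed with the block.

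Group sizes of 8 to 11 pigs limit the soy against mixed comparison most for NPC1L1, whose interval spans -0.61 to 0.72 in sham pigs and -0.32 to 0.94 in BDL pigs. Its counts were as low as 30 in MLE-sham and 58 in SLE-sham.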
